A study of Mus musculus with 6 samples.

Results

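The PI3K, Akt and mTOR core is a group of 8 genes that carry the growth signal from the cell membrane to protein synthesis: *Pik3ca*, *Pik3r1*, *Akt1*, *Akt2*, *Tsc1*, *Tsc2*, *Mtor* and *Rptor*. They were taken by gene name from the deposited expression table, where a repeated name would be read from its row with the highest mean, and 8 of 8 were found among 55416 rows. RNA had been sequenced from cultured satellite cells (SCs), the stem cells of skeletal muscle, in 6 libraries. The SCs came from the hind leg muscle of adult WT mice (3 libraries) and of mice with a systemic *Ltf* knockout made by CRISPR-Cas9 in C57/BL6N zygotes (*Ltf*-KO, 3 libraries). *Ltf* encodes lactoferrin, a secreted iron-binding protein. In both genotypes the cells were, as described, sorted as Sca1-/CD11b-/CD34+/α7-integrin+, kept in growth medium with serum, chick embryo extract and basic fibroblast growth factor, and harvested on day 4 with no further treatment. The comparison asks which transcripts differ between growing SCs from WT and from *Ltf*-KO mice. No source used here ties a replicate number to an animal, so p-values measure only the spread between these libraries, which may be technical.

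The *Ltf*-KO allele was made with a pair of guides that cut in introns on either side of the deleted exons. They are shown because they define the *Ltf*-KO group, with the last 3 bases, which read NGG as the Cas9 motif (PAM) does, in capitals.
Upstream guide: atggcatctagggctgcaccAGG
Downstream guide: ctagtgtataccccaaaggcTGG
For *Ltf* itself (ENSMUSG00000032496), the table gives 0.12, 0.02 and 0.02 TPM in WT replicates 1, 2 and 3 and 0.02, 0.03 and 0 TPM in *Ltf*-KO replicates 1, 2 and 3. TPM, the unit of the table, divides reads by gene length and scales each library to the same total. *Ltf* was therefore near 0 in both genotypes, and its level did not separate the labels in these cultures.

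PI3K is a lipid kinase, built from a catalytic and a regulatory subunit, that phosphorylates membrane phosphoinositides when growth factor receptors are engaged. The lipid recruits Akt, a protein kinase that inhibits the TSC complex and so releases the GTPase Rheb to activate mTOR complex 1 (mTORC1), which drives translation and ribosome production. In muscle this pathway is known for its part in SC activation, myoblast differentiation and fiber growth, and its activity is set largely by phosphorylation, which RNA levels do not measure.

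The libraries carried the transcripts of myogenic cells. Of 8 markers of SCs and myoblasts, 8 had a mean of at least 1 TPM, and their summed level was 1583, 1539 and 1536 TPM in WT and 1559, 1575 and 1560 TPM in *Ltf*-KO replicates 1 to 3. *Myod1* was the most abundant, at a mean of 779 TPM, and *Pax7* had a mean of 40.3 TPM. *Cd34* had a mean of 5.7 TPM after culture; its protein is in the sorting gate that the study's methods name, but the stains they list are for CD31, CD45, Sca1 and α7-integrin. All 10 markers of differentiating muscle were also present, with *Mylpf* the most abundant at 1041 TPM, and their sum was 2888, 3686 and 2689 TPM in WT and 3145, 2678 and 4320 TPM in *Ltf*-KO replicates 1 to 3. The cultures thus held transcripts of dividing and of differentiating cells, and the differentiation sum was highest in *Ltf*-KO replicate 3 and WT replicate 2. In such bulk RNA, fewer cells of a type and less RNA per cell cannot be told apart.

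The 8 core transcripts were present in every library and spanned a wide range of levels. On the TPM scale, which can be set side by side between genes, *Akt1* had a mean of 201 TPM over the 6 libraries, *Akt2* 71.7 TPM, *Tsc2* 42.6 TPM, *Rptor* 31.6 TPM, *Mtor* 18.2 TPM, *Pik3ca* 15.8 TPM, *Tsc1* 11.2 TPM and *Pik3r1* 9.61 TPM. Each gene lay above its next neighbour in this order in all 6 libraries, except that *Mtor* lay above *Pik3ca* in 5 of 6 and their ranges overlapped, so that the order of these genes was not resolved. *Akt1* stood at percentile 94.8 of the 12956 genes that average 1 TPM or more, the genes tested below, and *Pik3r1* stood at percentile 36.8.

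**Figure D1:**
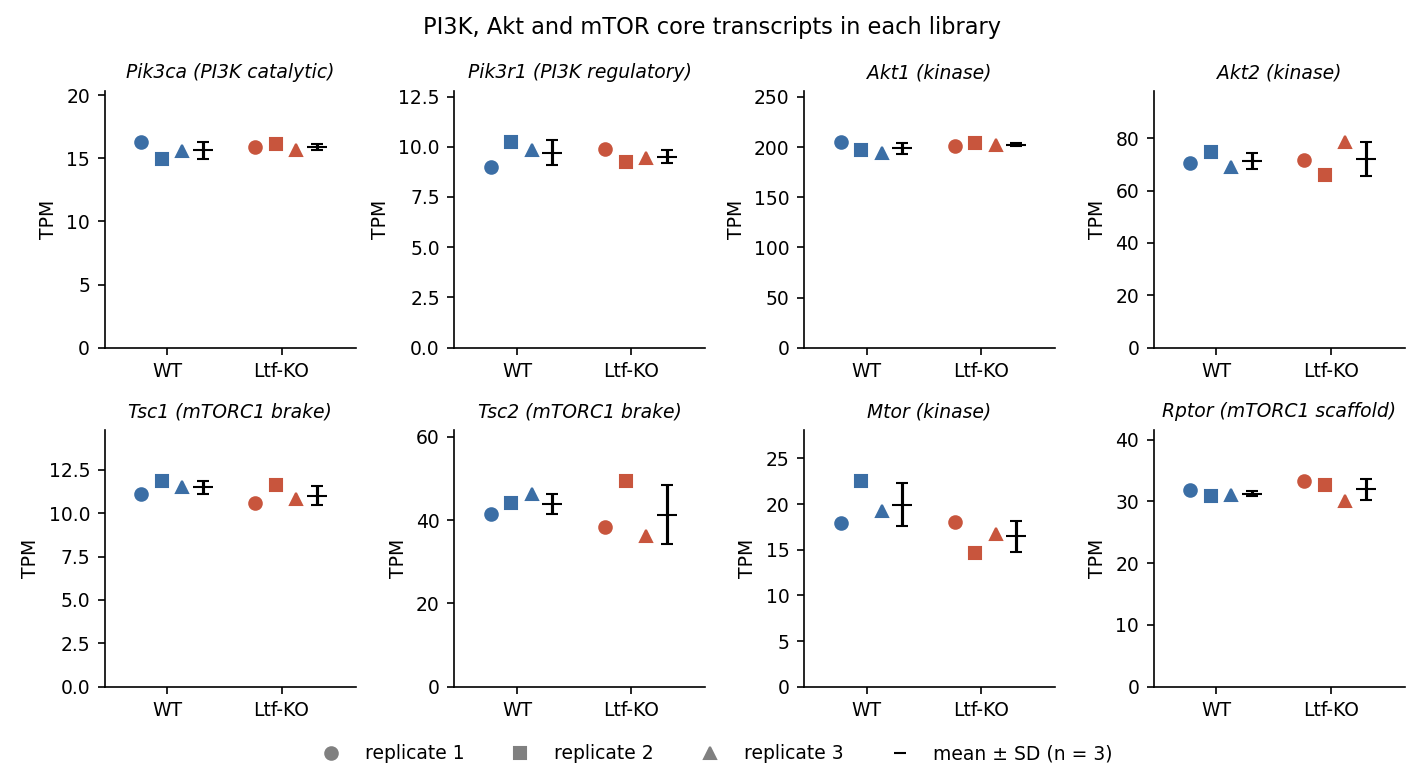
Level (TPM, linear axis from 0) of each of the 8 core transcripts in the 3 WT libraries (blue) and the 3 Ltf-KO libraries (red), with the marker shape giving the replicate number and the black bar the mean ± SD (n = 3). WT and Ltf-KO libraries overlap in every panel, most narrowly for Mtor, where WT replicate 1 (17.96 TPM) lies just under Ltf-KO replicate 1 (18.01 TPM).

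Between genotypes, the core was measured at similar levels, with *Mtor* the member that differed most. *Ltf*-KO was compared with WT by limma on log2(TPM + 1), a scale on which the change of a gene with few TPM is understated. Of the 8 members, 1 had an unadjusted p under 0.05 (*Mtor*), where 3.78% of all 12956 genes tested did. No member had one with no filter, with no variance trend or with a block for the replicate number. After Benjamini-Hochberg adjustment over all genes tested, 0 of 8 members and 0 of 12956 genes (0%) had a limma adjusted p under 0.05, while 490 genes had an unadjusted p under 0.05. The WT and *Ltf*-KO libraries overlapped for all 8 members (0 of 8 apart), where 8.46% of the genes tested did not overlap, although *Mtor* came apart after quantile normalization (where 8.21% of genes did) and after median-of-ratios scaling (8.35%). The fold change was above 0 for 4 members and below 0 for 4 (55.7% of the genes tested were above 0), with a median log2 fold change of -0.0063 against 0.011 over all genes tested. For 7 of 8 members it was smaller than 0.1 in size, a limit chosen after the values were seen, as it was for 69.2% of the genes tested. *Tsc2* lay just inside this limit at -0.0979. It lay outside it with quantile normalization (-0.112) and with median-of-ratios scaling (-0.108).

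**Figure D2:**
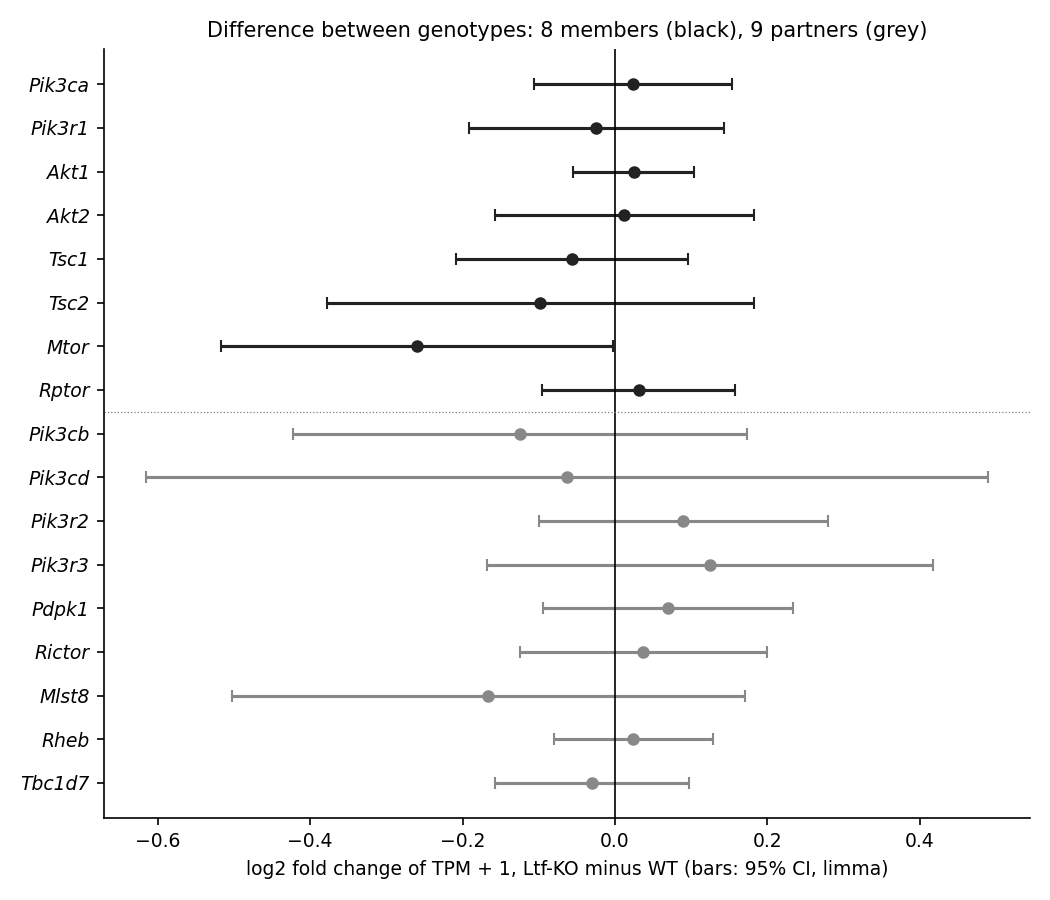
Difference between genotypes for the 8 core members (black) and 9 of their partners and paralogues (grey), as the log2 fold change of TPM + 1 (Ltf-KO minus WT), with bars for the 95% confidence interval from limma over 6 libraries. The intervals of 7 members reach across 0, and that of Mtor runs from -0.52 to -0.0023.

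*Pik3ca* (ENSMUSG00000027665, chromosome 3) encodes the p110 alpha catalytic subunit, the isoform that acts mainly below receptor tyrosine kinases. It was at 16.3, 14.95 and 15.6 TPM in WT replicates 1, 2 and 3 and at 15.9, 16.1 and 15.7 TPM in *Ltf*-KO replicates 1, 2 and 3. The *Ltf*-KO libraries lay inside the range of the WT libraries. The WT mean was 15.6 ± 0.675 TPM and the *Ltf*-KO mean 15.9 ± 0.235 TPM (± SD of 3 libraries), and the difference in log2 was 0.024 ± 0.054 (standard error; 95% confidence interval -0.11 to 0.15, limma adjusted p = 0.999). Without WT replicate 2 the sign turned, to -0.0052. *Pik3ca* made up 69.7% to 75.1% of the summed TPM of the class I catalytic subunits, and *Pik3cb* 19.1% to 26.1%. *Pik3cd* had a mean of 1.12 TPM, and *Pik3cg*, the isoform of blood cells, was listed at 0.07 TPM or less in each library. Both shares overlapped between genotypes.

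*Pik3r1* (ENSMUSG00000041417, chromosome 13) encodes the p85 alpha regulatory subunit, which holds the catalytic subunit stable and inactive and docks it on phosphorylated receptors. It was at 9.01, 10.24 and 9.86 TPM in WT replicates 1, 2 and 3 and at 9.87, 9.24 and 9.43 TPM in *Ltf*-KO replicates 1, 2 and 3. WT replicates 1 and 2 were the lowest and the highest of the 6 libraries. The log2 fold change was -0.025 (standard error 0.07, 95% confidence interval -0.19 to 0.14, limma adjusted p = 0.999), and it was 0.012 without WT replicate 2. Among the regulatory subunits, *Pik3r1* was not the leading transcript. *Pik3r2*, which encodes p85 beta, made up 49.2% to 57.6% of their summed TPM and lay above *Pik3r1* by 1.93-fold to 2.71-fold within a library. *Pik3r1* made up 20.8% to 25.5%, and *Pik3r3* was at 7.64 to 11.05 TPM, a range that overlapped that of *Pik3r1*. *Pik3ca* exceeded *Pik3r1* by 1.46-fold to 1.81-fold in TPM.

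*Akt1* (ENSMUSG00000001729, chromosome 12), the widely expressed Akt kinase linked to growth and survival, was the most abundant member. It was at 205, 197 and 194 TPM in WT replicates 1, 2 and 3 and at 201, 204 and 202 TPM in *Ltf*-KO replicates 1, 2 and 3. The WT libraries held both the highest and the lowest value, and the *Ltf*-KO libraries lay between them. *Ltf*-KO averaged 202 ± 1.53 TPM and WT 199 ± 5.56 TPM (± SD of 3 libraries), which is 0.025 ± 0.033 in log2 (standard error; limma adjusted p = 0.999). Its 95% confidence interval, -0.055 to 0.1, corresponds to 0.963-fold to 1.07-fold and was the narrowest of the 8 members.

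*Akt2* (ENSMUSG00000004056, chromosome 7), the Akt kinase best known from insulin signaling in muscle and fat, was at 70.5, 74.6 and 68.9 TPM in WT replicates 1, 2 and 3 and at 71.7, 65.9 and 78.6 TPM in *Ltf*-KO replicates 1, 2 and 3. *Ltf*-KO replicates 3 and 2 were the highest and the lowest of the 6 libraries, so that the *Ltf*-KO group enclosed the WT group. The log2 fold change was 0.012 (standard error 0.071, 95% confidence interval -0.16 to 0.18, limma adjusted p = 0.999), and its sign turned when *Ltf*-KO replicate 3 (-0.052) or WT replicate 3 (-0.013) was left out. The annotation holds 1 pseudogene named after *Akt2*, and how reads that match both were assigned is not given in the sources used here. *Akt1* exceeded *Akt2* by 2.91-fold, 2.64-fold and 2.82-fold in WT and by 2.8-fold, 3.09-fold and 2.58-fold in *Ltf*-KO replicates 1 to 3, so that the ratio overlapped between genotypes.

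**Figure D3:**
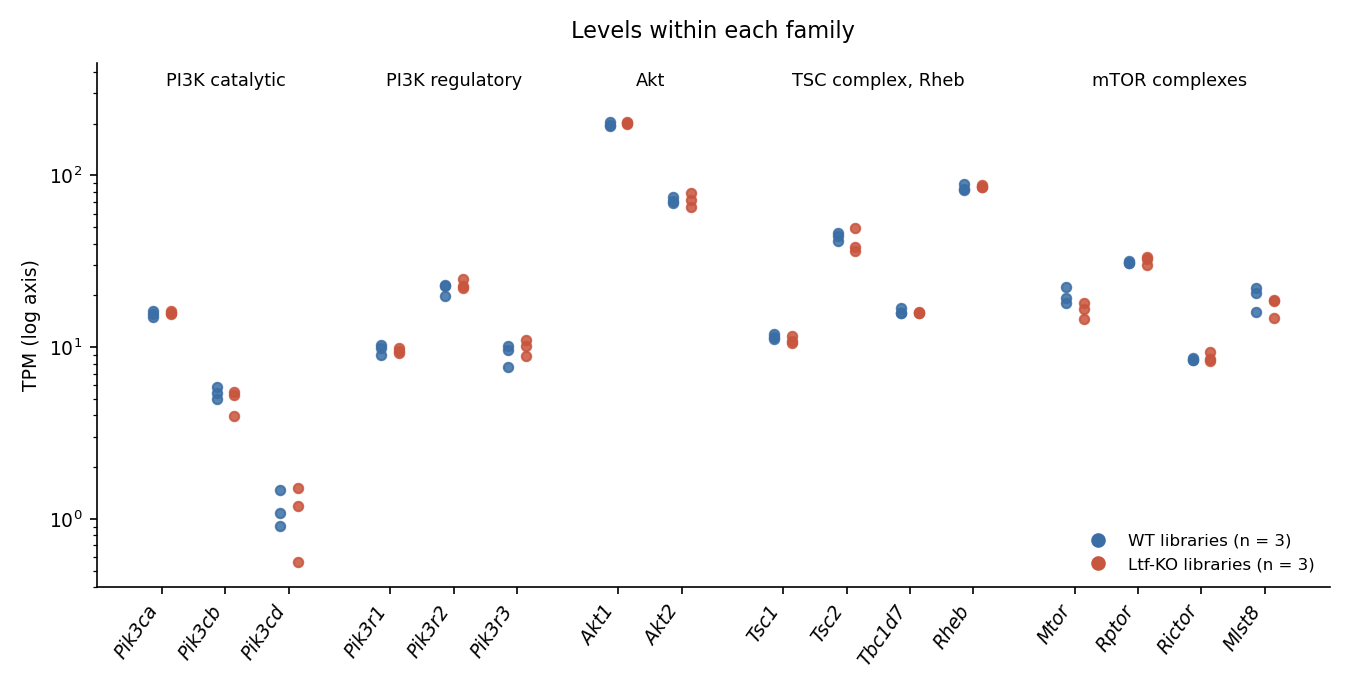
Level (TPM, log axis) of the core members and their paralogues or complex partners, with 1 point per library (WT blue, Ltf-KO red, n = 3 each). Akt1 lies above Akt2, Pik3r2 above Pik3r1, Tsc2 above Tsc1 and Rptor above Rictor in all 6 libraries.

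The libraries had the same order in *Akt2* as in a gene of muscle differentiation. Among all genes tested, the gene whose standardized log2(TPM + 1) profile over the 6 libraries lay closest to that of *Akt2* was *Myog*, the transcription factor that starts terminal differentiation of myoblasts. *Myog* was at 319, 410 and 293 TPM in WT replicates 1, 2 and 3 and at 360, 266 and 508 TPM in *Ltf*-KO replicates 1, 2 and 3. The libraries had the same order in both genes, *Ltf*-KO replicate 3, WT replicate 2, *Ltf*-KO replicate 1, WT replicate 1, WT replicate 3 and *Ltf*-KO replicate 2, from the highest to the lowest. The root mean square distance of the standardized profiles was 0.125 SD. Every member has such a nearest gene, at 0.0463 to 0.203 SD, so this distance does not set *Akt2* apart. The mean log2(TPM + 1) of the 10 differentiation markers was 6.78, 7.08 and 6.61 in WT and 6.9, 6.63 and 7.32 in *Ltf*-KO replicates 1 to 3. Its order differed from that of *Akt2* only in the places of WT replicate 3 and *Ltf*-KO replicate 2. *Akt2* differed by 1.19-fold between its highest and its lowest library. After these values were seen, each of the 8 members was correlated with this marker mean, which includes *Myog*, over the 6 libraries. As a description, Pearson's r was 0.967 for *Akt2*, -0.768 for *Tsc2*, -0.564 for *Rptor*, -0.475 for *Pik3ca*, -0.335 for *Tsc1*, 0.243 for *Mtor*, 0.219 for *Pik3r1* and 0.106 for *Akt1*. Without *Ltf*-KO replicate 3 and WT replicate 2, the libraries farthest from the median of the markers, r over the remaining 4 was 0.833 for *Akt2*, -0.952 for *Tsc2*, 0.649 for *Rptor*, 0.255 for *Pik3ca*, -0.981 for *Tsc1*, 0.264 for *Mtor*, 0.115 for *Pik3r1* and 0.344 for *Akt1*. The values for *Rptor* and *Pik3ca* thus turned in sign and rested on those libraries, and *Tsc1* and *Tsc2*, with negative r, exceeded *Akt2* in size. P-values were computed for these correlations but are not used, because the values had been seen and *Myog* is among the markers. What part differentiation has in the level of *Akt2* was therefore not tested.

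*Tsc1* (ENSMUSG00000026812, chromosome 2) encodes hamartin, which stabilizes the TSC complex. It was at 11.1, 11.9 and 11.5 TPM in WT replicates 1, 2 and 3 and at 10.6, 11.7 and 10.8 TPM in *Ltf*-KO replicates 1, 2 and 3. *Ltf*-KO replicates 1 and 3 were under all WT libraries, and *Ltf*-KO replicate 2 was among them. In log2, *Ltf*-KO differed from WT by -0.056 (standard error 0.063, 95% confidence interval -0.21 to 0.096, limma adjusted p = 0.999).

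*Tsc2* (ENSMUSG00000002496, chromosome 17) encodes tuberin, the subunit that switches Rheb off and that Akt phosphorylates. It was at 41.5, 44.2 and 46.2 TPM in WT replicates 1, 2 and 3 and at 38.5, 49.4 and 36.2 TPM in *Ltf*-KO replicates 1, 2 and 3. *Ltf*-KO replicate 2 was the highest of all libraries, and *Ltf*-KO replicates 1 and 3 were the lowest. The log2 fold change was -0.098 (standard error 0.12, 95% confidence interval -0.38 to 0.18, limma adjusted p = 0.999). Without *Ltf*-KO replicate 2 it was -0.23 (limma unadjusted p = 0.0144, adjusted p = 0.98), and without *Ltf*-KO replicate 3 it was -0.01. The coefficient of variation of *Tsc2* was 17.1% among *Ltf*-KO libraries and 5.43% among WT libraries, where the medians of genes from 20 to 50 TPM were 5.65% and 5.33%.

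*Tsc2* shares 693 bases at its edge with *Pkd1*, the polycystin gene on the opposite strand, in the GENCODE M21 annotation. Whether reads were counted by strand is not given in the sources used here, so reads from the shared bases may have been counted for either gene. *Pkd1* was at 33.5, 26.1 and 38.3 TPM in WT replicates 1, 2 and 3 and at 27.5, 41.55 and 26.1 TPM in *Ltf*-KO replicates 1, 2 and 3. Like *Tsc2*, it was highest in *Ltf*-KO replicate 2 and second in WT replicate 3, and it was low in *Ltf*-KO replicates 1 and 3, but its lowest library was WT replicate 2, where *Tsc2* was above its median. It was chosen for its overlap after the values of *Tsc2* were seen, and its part in them was not tested. *Tsc2* was lowest in *Ltf*-KO replicate 3, where the mean of the differentiation markers was highest, and it was highest in *Ltf*-KO replicate 2, while that mean was lowest in WT replicate 3. *Tsc2* made up 77.0% to 80.9% of the summed TPM of *Tsc1* and *Tsc2*, and exceeded *Tsc1* by 3.34-fold to 4.24-fold. *Tbc1d7*, which encodes the remaining TSC subunit, had a mean of 16 TPM, and *Rheb* had a mean of 85.8 TPM.

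**Figure D4:**
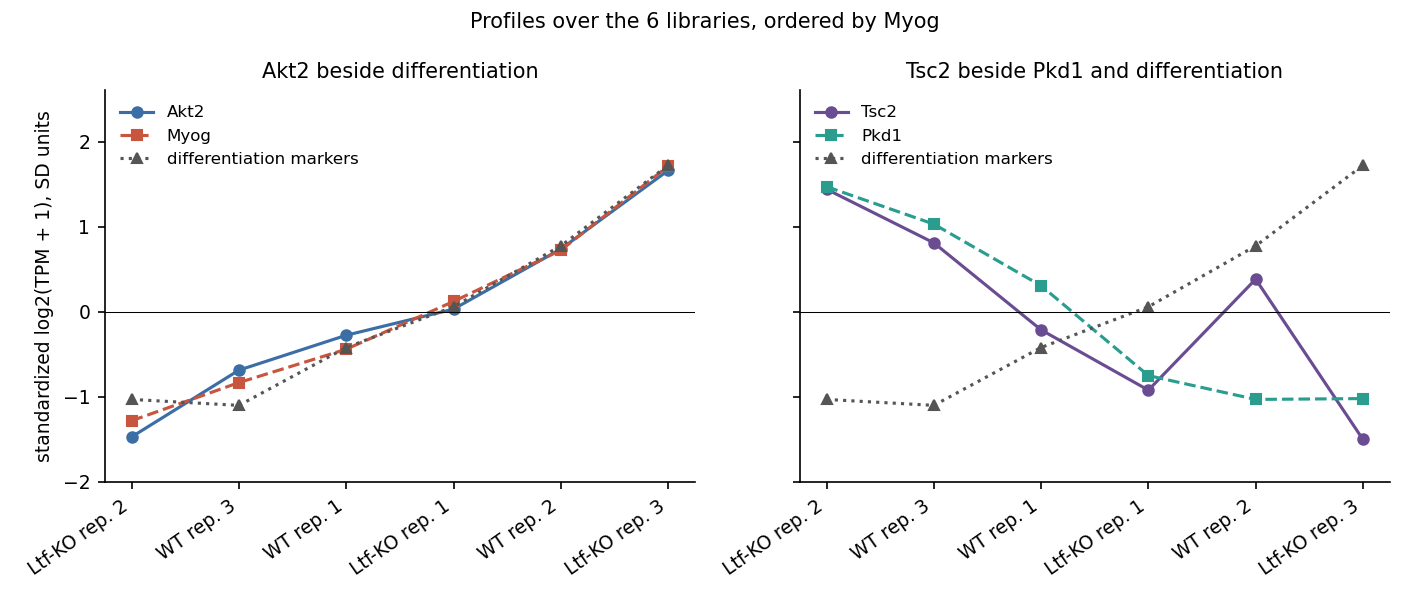
Standardized log2(TPM + 1) (SD units from the mean of the 6 libraries) of Akt2, Myog and the mean of 10 differentiation markers (left), and of Tsc2, Pkd1 and the same markers (right), with libraries ordered by their Myog level and lines drawn only to guide the eye. Akt2 and Myog have the same order of libraries, and Tsc2 and Pkd1 are both highest in Ltf-KO replicate 2.

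*Mtor* (ENSMUSG00000028991, chromosome 4) encodes the kinase shared by mTORC1 and mTORC2. It was at 17.96, 22.54 and 19.25 TPM in WT replicates 1, 2 and 3 and at 18.01, 14.61 and 16.75 TPM in *Ltf*-KO replicates 1, 2 and 3. WT replicates 2 and 3 were above all *Ltf*-KO libraries and *Ltf*-KO replicates 2 and 3 were under all WT libraries, while replicate 1 of both genotypes was nearly equal. WT averaged 19.9 ± 2.36 TPM and *Ltf*-KO 16.5 ± 1.72 TPM (± SD of 3 libraries), a ratio of 0.826. The log2 fold change was -0.26 (standard error 0.11, 95% confidence interval -0.52 to -0.0023, limma unadjusted p = 0.0485, adjusted p = 0.999). The interval corresponds to 0.699-fold to 0.998-fold. By unadjusted p, *Mtor* ranked 472 among the 490 genes under 0.05, and a two-sided exact permutation test gave p = 0.2, and this design cannot give less than 0.1.

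The size of the *Mtor* difference depended on single libraries. It was -0.17 without WT replicate 2 (limma unadjusted p = 0.148, adjusted p = 1), -0.18 without *Ltf*-KO replicate 2 (limma unadjusted p = 0.15, adjusted p = 0.98), and -0.33 without WT replicate 1 (limma unadjusted p = 0.0342, adjusted p = 1). With WT replicate 3 left out it was -0.28 (limma unadjusted p = 0.0839, adjusted p = 1), with *Ltf*-KO replicate 3 left out -0.27 (limma unadjusted p = 0.0886, adjusted p = 0.984) and with *Ltf*-KO replicate 1 left out -0.32 (limma unadjusted p = 0.0399, adjusted p = 1). Over every setting run, the adjusted p from limma stayed between 0.946 and 1. The sign was below 0 in each of these fits. With all 6 libraries, the unadjusted p was above 0.05 with no filter (limma unadjusted p = 0.0557, adjusted p = 0.946) and with no variance trend (limma unadjusted p = 0.0616, adjusted p = 0.999). It was also above 0.05 with a block for the replicate number (limma unadjusted p = 0.107). *Mtor* varied more than the median gene of its level in both genotypes, whereas *Tsc2* was near that median in WT. The coefficient of variation of *Mtor* was 11.9% in WT and 10.4% in *Ltf*-KO, where the medians of genes from 5 to 20 TPM were 7.75% and 8.13%. *Angptl7*, which lies within *Mtor* on the opposite strand, was at 0.1 TPM or less in every library.

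*Rptor* (ENSMUSG00000025583, chromosome 11) encodes Raptor, the scaffold that defines mTORC1 and presents its substrates. It was at 31.8, 30.9 and 31.1 TPM in WT replicates 1, 2 and 3 and at 33.3, 32.6 and 30.05 TPM in *Ltf*-KO replicates 1, 2 and 3. *Ltf*-KO replicates 1 and 2 were above all WT libraries and *Ltf*-KO replicate 3 was under them. As a log2 fold change, the difference was 0.031 (standard error 0.053, 95% confidence interval -0.095 to 0.16, limma adjusted p = 0.999). The coefficient of variation of *Rptor* was 1.42% among WT and 5.35% among *Ltf*-KO libraries. *Rictor*, the scaffold of mTORC2, had a mean of 8.6 TPM, and *Rptor* made up 77.8% to 80.0% of the summed TPM of both scaffolds, with overlap between genotypes. *Mlst8*, a subunit of both complexes, had a mean of 18.5 TPM and ranged from 14.83 to 22.23 TPM, a range that overlapped that of *Mtor*.

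The partners gave no further call. Of the 10 paralogues and partners set beside the members, 9 were tested and *Pik3cg* was below the filter. Among these 9, *Pdpk1*, the kinase that activates Akt, averaged 11.8 ± 0.407 TPM in WT and 12.5 ± 0.856 TPM in *Ltf*-KO (± SD of 3 libraries). The WT and *Ltf*-KO libraries overlapped for each of these 9 genes, where 8.46% of all genes tested did not overlap. None of the 9 had a limma unadjusted p under 0.05, where 3.78% of all genes tested did.

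The wider pathway was read from 13 lists that follow the signal from receptors to target transcripts. They held 151 distinct genes, and 143 of them, the 8 members included, had a mean of at least 1 TPM. Of these, 4 were higher and 3 lower in *Ltf*-KO at an unadjusted p under 0.05 (4.9% together). Over all genes tested 2.01% were higher and 1.78% lower. *Mtor* is counted again among the 3. None of the 143 had a limma adjusted p under 0.05, and their median log2 fold change was 0.012. The count of 7 was 3 without WT replicate 2. The 8 genes below the filter were *Pik3cg*, *Pik3c2g*, *Pik3r5*, *Pik3r6*, *Pik3ap1*, *Irs4*, *Prr5l* and *Klf15*.

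**Figure D5:**
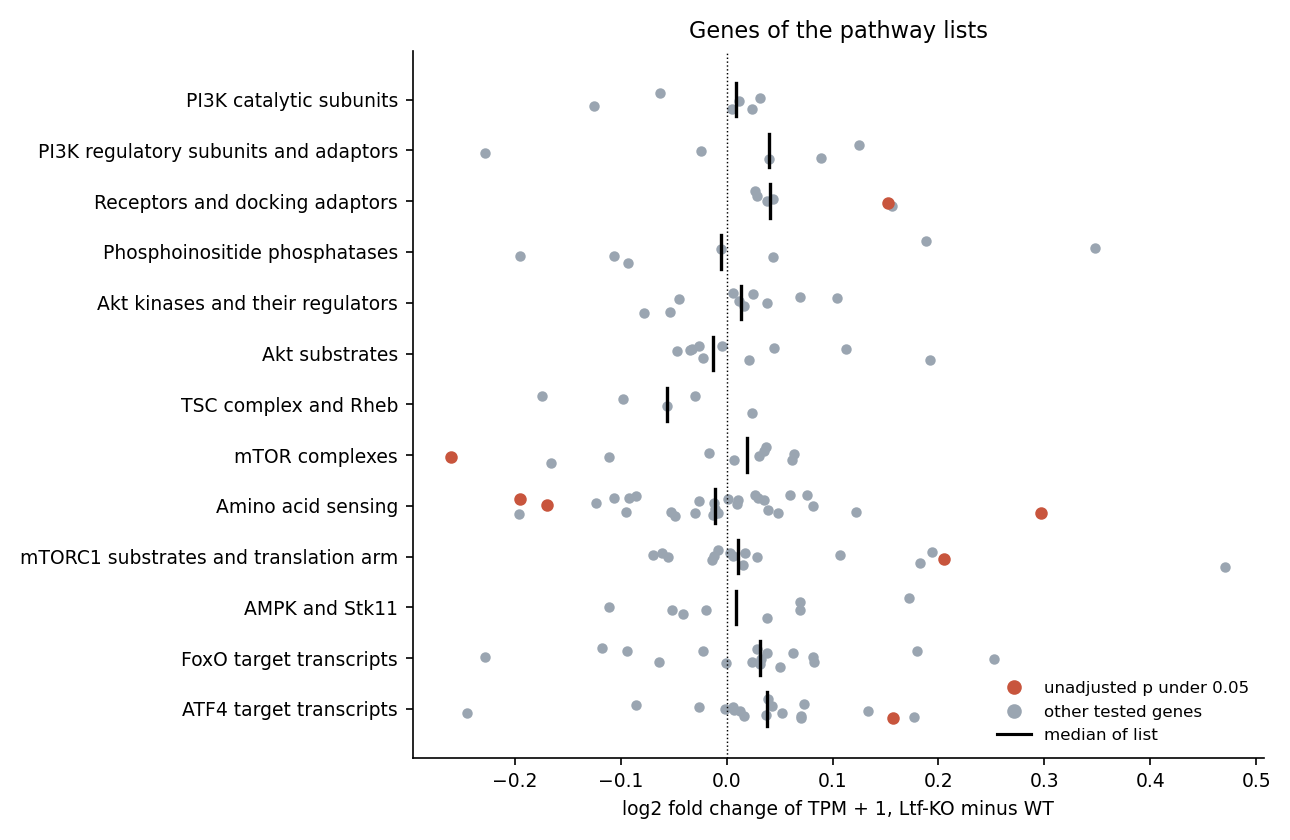
Log2 fold change of TPM + 1 (Ltf-KO minus WT, x axis) of each tested gene of the 13 pathway lists (rows), with genes at an unadjusted limma p under 0.05 in red and the median of each list as a black bar (vertical jitter has no meaning). The list medians lie between -0.056 (TSC complex and Rheb) and 0.041 (receptors and docking adaptors).

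At and upstream of PI3K, the lists held *Pik3ca* and *Pik3r1* again, and the catalytic list was not limited to class I. Of 6 tested PI3K catalytic subunits, 0 had an unadjusted p under 0.05, where 3.78% of all genes tested did. The same count was 0 of 5 for regulatory subunits and adaptors and 0 of 7 for phosphoinositide phosphatases. The median log2 fold change was 0.0084 for the catalytic and 0.04 for the regulatory list. In these lists *Pik3c2a* (mean 26.0 TPM), *Pik3r2* (22.5 TPM) and *Inppl1*, which encodes the phosphatase SHIP2 (156 TPM), were the most abundant. Of 6 receptors and docking adaptors, 6 had a fold change above 0, as did 55.7% of all genes tested (median 0.041), and 1 was under the threshold. *Igf1r*, the receptor for insulin-like growth factors, was at 14.2, 13.7 and 13.4 TPM in WT replicates 1, 2 and 3 and at 15.4, 15.5 and 15.4 TPM in *Ltf*-KO replicates 1, 2 and 3. All *Ltf*-KO libraries were above all WT libraries, where 8.46% of all genes tested did not overlap. The groups differed by 0.15 in log2 (standard error 0.051, limma unadjusted p = 0.0219, adjusted p = 0.999). In 4 of 6 fits with a library left out, the unadjusted p lay above 0.05. *Irs1*, the most abundant docking adaptor of this list, had a mean of 22.3 TPM.

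Around Akt and TSC, an unadjusted p under 0.05 was held by 0 of 10 Akt kinases and regulators and 0 of 10 Akt substrates. It was also held by 0 of 5 genes of the TSC complex and Rheb, against 3.78% of all genes tested. The medians were 0.014, -0.013 and -0.056 in that order. *Akt1* led the first list, *Mdm2* (238 TPM) the second and *Rheb* the third. Of 8 genes for AMPK and its activating kinase *Stk11* (72.4 TPM), 0 were under the threshold (median 0.0092). Of 10 tested genes of the mTOR complexes, *Mtor* alone was under it, with a median of 0.019, and *Akt1s1*, which encodes an mTORC1 inhibitor that Akt phosphorylates, was the most abundant at 112 TPM.

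Amino acid sensing, the input by which lysosomes admit mTORC1 to Rheb, is the longest list and had 3 of 29 genes under the threshold (1 higher, 2 lower; 10.3%, against 3.78% of all genes tested), with a median of -0.011. *Wdr24*, a GATOR2 subunit, was at 11.8, 11.9 and 12.4 TPM in WT replicates 1, 2 and 3 and at 9.87, 10.49 and 10.77 TPM in *Ltf*-KO replicates 1, 2 and 3, with a log2 fold change of -0.2 (limma unadjusted p = 0.0165, adjusted p = 0.999). *Rragb*, a Rag GTPase, was at 6.81, 5.86 and 6.7 TPM in WT and at 7.27, 8.59 and 8.64 TPM in *Ltf*-KO replicates 1 to 3, with a log2 fold change of 0.3 (limma unadjusted p = 0.0186, adjusted p = 0.999). Neither gene overlapped between genotypes, *Wdr24* being lower and *Rragb* higher in all *Ltf*-KO libraries, where 8.46% of all genes tested did not overlap. Both were named for their unadjusted p, so the lack of overlap is not separate evidence. Both had an unadjusted p above 0.05 in at least 1 fit with a library left out. *Sec13* was the most abundant of the list at 146 TPM.

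Downstream of mTORC1, 1 of 16 substrates and translation genes was under the threshold (6.25%, against 3.78% of all genes tested), with a median of 0.011. *Maf1*, a repressor of RNA polymerase III that mTORC1 inhibits, was at 77.1, 70.4 and 79.6 TPM in WT replicates 1, 2 and 3 and at 90.5, 83.04 and 88.5 TPM in *Ltf*-KO replicates 1, 2 and 3. All *Ltf*-KO libraries were above all WT libraries, where 8.46% of all genes tested did not overlap. The groups differed by 0.21 in log2 (standard error 0.06, limma unadjusted p = 0.012, adjusted p = 0.999). *Rps6*, the ribosomal protein that marks mTORC1 activity when phosphorylated, had a mean of 1881 TPM, which is uncertain because the annotation holds 4 pseudogenes named after it.

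Transcripts that respond to the pathway gave a further view of it. Of 17 tested FoxO targets, which rise when Akt activity is low, 0 had an unadjusted p under 0.05 (3.78% of all genes tested did). Of these targets, 11 had a fold change above 0 and 6 below it (55.7% of all genes tested were above 0), and the median was 0.031. *Ctsl* was the most abundant at 372 TPM. Of 18 ATF4 targets, which mTORC1 can raise, 1 was under the threshold (5.56%, against 3.78% of all genes tested). Their fold change was above 0 for 14 and below it for 4 (median 0.038). *Psph*, the last enzyme of serine synthesis, was at 41.1, 41.4 and 44.9 TPM in WT and at 48.0, 49.4 and 45.07 TPM in *Ltf*-KO replicates 1 to 3, with a log2 fold change of 0.16 (limma unadjusted p = 0.0289, adjusted p = 0.999). Its groups were apart, as for 8.46% of all genes tested, by a small margin between WT replicate 3 and *Ltf*-KO replicate 3. The unadjusted p of *Psph* lay above 0.05 in 4 of 6 fits with a library left out. *Phgdh*, the first enzyme of that pathway, was the most abundant of the list at 268 TPM, a level as uncertain as that of *Akt2* since the annotation holds 1 pseudogene named after it.

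The deposited table also annotates genes to an mTOR and a PI3K-Akt signaling pathway. Of 130 tested genes of the mTOR pathway, 4 were higher and 3 lower at an unadjusted p under 0.05 (5.38% together, against 3.78% of all genes tested), with a median of 0.017 and *Rps6* as the most abundant gene. With 1 library left out, this count of 7 ranged from 3 (WT replicate 3) to 7. Of 218 tested genes of the PI3K-Akt pathway, 10 were higher and 4 lower (6.42% together, against the same 3.78%; over all genes tested 2.01% were higher and 1.78% lower), with a median of 0.029. The count of 14 likewise ranged from 8 (WT replicate 2, or *Ltf*-KO replicate 2) to 20 (*Ltf*-KO replicate 3). *Mtor* was the single core member among the 14, and 132 further genes of this pathway were below the filter. The 4 genes with the lowest p were *G6pc3*, a glucose phosphatase (log2 fold change 0.26, limma unadjusted p = 0.00439, adjusted p = 0.999), *Grb2*, an adaptor of receptor tyrosine kinases (-0.17, unadjusted p = 0.0061), *Fgf2*, a growth factor (0.63, unadjusted p = 0.00752), and *Ccne2*, cyclin E2 (-0.19, unadjusted p = 0.0127). The most abundant was *Spp1*, which encodes the secreted protein osteopontin, at 6892 TPM.

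Outside *Akt2* and *Myog*, the nearest profiles were those of *Syvn1* for *Akt1* (distance 0.121 SD), *Slc25a33* for *Pik3ca* (0.139 SD), *Zfp146* for *Pik3r1* (0.106 SD), *Zfp597* for *Mtor* (0.203 SD), *Chrna1* for *Rptor* (0.0463 SD), *Morrbid* for *Tsc1* (0.12 SD) and *Dhx38* for *Tsc2* (0.123 SD), each over 6 libraries. No member was the nearest profile of another. With 6 libraries and 12956 genes to search, every member had a close profile, and these are descriptions.

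Markers of other cell types were read in the same libraries, where their summed TPM does not measure a cell type's share of the RNA. Of 6 macrophage and leukocyte markers, 2 had a mean of at least 1 TPM and their sum was 3.59 to 11.5 TPM per library, highest in WT replicate 1, where *Lyz2* was at 7.22 TPM. *Cd68* was their most abundant gene, and *Ptprc*, *Adgre1* and *Itgam* were listed at 0 in at least 1 library. Of 4 neutrophil markers 1 passed (*S100a9*, sum 0.8 to 3.39 TPM), of 6 endothelial markers 4 (*Cdh5*, 5.68 to 15.0 TPM), of 4 erythroid markers 2 (*Hbb-bs*, 9.35 to 13.0 TPM) and of 5 Schwann cell markers 5 (*Ngfr*, 21.1 to 37.4 TPM). Fibroblast markers passed for 5 of 8 (*Col3a1*, 102 to 134 TPM) and smooth muscle and pericyte markers for 3 of 6 (*Acta2*, which myoblasts also express, 451 to 634 TPM). Most of the fibroblast sum was *Col3a1*, with a mean of 96.7 TPM, and the next marker, *Col1a1*, had a mean of 5.98 TPM. The 6 markers of cycling cells summed to 1190, 1140 and 1088 TPM in WT and 1107, 1076 and 1156 TPM in *Ltf*-KO replicates 1 to 3, with *Cdk1* the most abundant. The endothelial and Schwann sums were high in WT replicate 3 and *Ltf*-KO replicate 2, the libraries with the highest *Tsc2*, which was noticed after the values were seen, but the endothelial sum was also 12.1 TPM in *Ltf*-KO replicate 1, where *Tsc2* was low (38.5 TPM). Their part in *Tsc2* was not tested. None of the 10 marker lists held a gene with a limma unadjusted p under 0.05, where 3.78% of all genes tested had one.

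All 8 members had at least 1 promoter window in RefSeq (GRCm38.p6), 13 windows of 300 bases in all. The median window held 13 CpG dinucleotides, against 7 over all 32851 windows, and 56.7% G or C, against 52.7%. Motifs were picked after the expression values were seen, and all 5 searched are given. On either strand, TATAAA was found in 1 of the 13 windows (7.69%, against 13.6% of all windows), GGGCGG in 5 (38.5%, against 35.7%), CCGGAAG in 3 (23.1%, against 8.86%; *Pik3ca*, *Mtor* and *Tsc2*), CANNTG in 8 (61.5%, against 72.3%) and TGTTTAC in 1 (7.69%, against 3.65%). These matches describe the windows, and no binding was measured here.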

How the data were processed

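RNA of 6 SC libraries (3 WT, 3 *Ltf*-KO) had been sequenced and normalized by the sequencing company's protocol. The authors deposited TPM values of 55416 genes, with genome build GRCm39 per the submitters' processing notes; aligner, counter, annotation and strand are not given in the sources used here. TPM keeps no depth (column sums 993650 to 994356), so precision was judged from replicates. No pair of libraries held the same values (Pearson r of log2(TPM + 1) across tested genes, which are not replicates, 0.972 to 0.978).

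Here *Ltf*-KO was compared with WT by limma 3.58.1 in R 4.3.3 (lmFit, eBayes with a variance trend, two-sided, Benjamini-Hochberg) on log2(TPM + 1), over 12956 genes averaging 1 TPM or more; the code was tested on simulated data. An exact permutation test was run beside it for the members. Figures and summaries used Python 3.11.15. Chromosomes, overlaps and pseudogene names came from GENCODE M21 (GRCm38), matched by gene identifier.

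Members and lists were chosen with earlier results of these data known. Genes named were the 8 members, 10 partners, in each pathway list the most abundant gene and up to 4 with the lowest unadjusted p under 0.05, the nearest profile of each member (root mean square distance), *Ltf* and the markers of 10 cell types or states. Alternatives were a pseudocount of 0.1, no filter, a mean of at least 10 TPM, the replicate block, quantile normalization, median-of-ratios scaling, no variance trend and each library left out. Results for some planned genes are not reported here. Count-based tests need reads, which the table lacks. Some choices followed a look at the values: the limit of 0.1 on fold changes, the search for overlapping genes that gave *Pkd1*, the promoter motifs, the ratio of *Rptor* to *Mtor*, and the 8 correlations with differentiation markers, which were dropped once in favour of the nearest profiles and then restored so that all are given. Exact permutation p-values of these correlations were also computed; with Benjamini-Hochberg adjustment over the 8, *Akt2* passed 0.05 by Pearson's r and no member did by Spearman's rho. They are not used, because the values had been seen and *Myog* is among the markers.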

Additional observations from a re-analysis of the deposited data

How the results depend on the processing

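Of the 8 members, *Akt1*, *Rptor* and *Tsc1* kept their sign and stayed above an unadjusted p of 0.05 in all 13 alternatives. *Mtor* kept its sign in all 13, with an unadjusted p under 0.05 in 6. It crossed that threshold with no filter (log2 fold change -0.26, limma unadjusted p = 0.0557, adjusted p = 0.946), with the replicate block (-0.26, limma unadjusted p = 0.107, adjusted p = 1) and with no variance trend (-0.26, limma unadjusted p = 0.0616, adjusted p = 0.999), which left 0 members under it, against 1 in the main comparison. Its groups did not overlap with quantile normalization or median-of-ratios scaling (1 member, against 0), where 8.21% and 8.35% of all genes did not overlap. With 1 library left out, log2 fold changes ranged from -0.33 to -0.17 for *Mtor*, -0.052 to 0.074 for *Akt2*, -0.0052 to 0.053 for *Pik3ca*, -0.072 to 0.012 for *Pik3r1* and -0.23 to -0.0102 for *Tsc2*. These fits kept the 12956 genes of the main comparison; at first the filter was applied anew to the libraries kept, and this was changed after both sets of counts were seen, with no change in how any member came out. The count of members under an unadjusted p of 0.05 then ranged from 0 to 1, and that of members without overlap from 0 to 3, with *Akt1*, *Pik3ca* and *Mtor* apart without WT replicate 1. In these fits of fewer libraries, 16.8% to 19.0% of all genes did not overlap (17.3% without WT replicate 1).

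Over all genes, the count at a limma adjusted p under 0.05 was 0 in each fit of all 6 libraries and 0 to 6 with 1 library left out. At an unadjusted p under 0.05 there were 490 genes in the main comparison, 890 with no filter and 281 among genes averaging 10 TPM or more, since these settings change how many are tested. Of these genes 46.9% were lower in *Ltf*-KO, and this share ranged over the alternatives from 39.0% (without *Ltf*-KO replicate 3) to 60.0% (quantile normalization). Counts in the pathway lists, whose alternatives were added after seeing the data, ranged with 1 library left out from 3 to 7 for the 13 lists, 3 to 7 for the annotated mTOR pathway and 8 to 20 for the annotated PI3K-Akt pathway; the cause was not tested.

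Replicate numbers are shared between genotypes, but same-numbered libraries did not deviate together (r across genes -0.0413, -0.0582 and -0.0875), so they were not taken as paired. With the replicate block, 380 genes had an unadjusted p under 0.05, 4 of the 13 lists' genes and 9 of the annotated PI3K-Akt genes among them. The block ended the unadjusted calls of *Mtor*, *Igf1r* and *Psph* among the genes named. *Pik3r1* averages under 10 TPM and has no value at that filter. The number of reads behind each TPM value is unknown, which limits the precision of the least abundant members.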

Other observations

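The level of *Rptor* relative to *Mtor*, a ratio singled out after its values were seen, was 1.77, 1.37 and 1.61 in WT replicates 1, 2 and 3 and 1.85, 2.23 and 1.79 in *Ltf*-KO replicates 1, 2 and 3. All *Ltf*-KO libraries were above all WT libraries in this ratio of TPM, although neither transcript was apart on its own, and the gap between WT replicate 1 and *Ltf*-KO replicate 3 was small. The other ratios computed all overlapped between genotypes. They were *Akt1* to *Akt2*, *Pik3r2* to *Pik3r1*, *Pik3ca* to *Pik3r1*, *Tsc2* to *Tsc1* and *Rptor* to *Rictor*. How often the ratio of any 2 genes comes apart was not counted, and the ratio of *Rptor* to *Mtor* was not tested.

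*Rps6kb2*, which encodes the S6 kinase beta 2 that mTORC1 phosphorylates, was picked once its values were known. It was at 17.4, 22.05 and 21.1 TPM in WT replicates 1, 2 and 3 and at 19.3, 30.02 and 38.6 TPM in *Ltf*-KO replicates 1, 2 and 3. *Ltf*-KO replicates 2 and 3 were above all WT libraries and *Ltf*-KO replicate 1 was among them.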
